A study of Mus musculus with 82 samples.

Results

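Brachyury binding sites that an Eomes protein with a V5 tag or a VP16 domain also occupied, but that were missing from the peaks of Eomes-GFP, are described here. They were taken from the list of Brachyury-GFP (BraGFP) peaks on the assembled chromosomes, with repeated entries dropped. A peak was chosen, and is called a member below, when it shared no base with the Eomes-GFP (EoGFP) list and at least 1 bp with the EoV5 list, the EoVP16 list or both. Of 27588 BraGFP peaks, 8083 overlapped EoGFP and 19505 did not. Of those 19505, 2952 were members, or 15.1% (95% Wilson interval 14.6 to 15.6), and the other 16553 were in no Eomes list. The members split into 620 found by EoV5 only (3.18% of the 19505), 1514 found by EoVP16 only (7.76%) and 818 found by EoV5 and EoVP16 (4.19%), called shared members. The members were chosen by these measured overlaps, so the counts are a description.

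The series holds 82 mouse samples, and 6 ChIP-seq libraries stand behind the 4 lists used here. ChIP-seq sequences the DNA that is pulled down with a protein. All 4 groups were embryoid bodies (balls of differentiating cells) grown from A2lox.Cre embryonic stem cells that lack Eomes and Brachyury (dKO), and each carried 1 construct switched on by doxycycline. Cells received activin A at 30 ng/ml and were taken on day 5. The groups were dKO+BraGFP (2 libraries), dKO+EoGFP (2 libraries), dKO+EoV5 (1 library) and dKO+EoVP16 (1 library), all with doxycycline. Per the labels, anti-GFP pulled down the GFP proteins, and anti-V5 pulled down EoV5 and EoVP16. Among these lists the antibody is therefore fixed by the tag, and their parts in a difference between EoGFP and the V5 lists cannot be told apart. Each construct has 1 list, so no value below has a replicate error, and the tests compare peaks of these lists rather than cultures. The lists also begin at different heights. Height is the pileup, the number of fragments stacked at the summit, and the stated minimum was 120 in EoGFP, 40 in BraGFP, 60 in EoV5 and 36 in EoVP16. A member can thus hold EoGFP signal below 120 fragments, which the lists do not show.

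As background, Eomes and Brachyury (gene symbol T) are transcription factors of the T-box family, which bind DNA through a shared domain that recognises the core AGGTGT. Both act in the primitive streak, the part of the gastrulating embryo from which mesoderm and definitive endoderm arise. Brachyury is best known for posterior mesoderm and notochord, and Eomes for endoderm and anterior mesoderm. VP16 is a viral activation domain that, fused to a DNA-binding protein, turns it into a strong activator.

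No genome sequence was used here, so sequences could be read only where a RefSeq promoter (250 bases before to 50 after a coding start, build GRCm38.p6) lay wholly inside a member. This was so for 301 promoters of 263 genes: 3 in EoV5-only, 123 in EoVP16-only and 175 in shared members. The 250 bases before the start are printed below for 8 of them, 5′ to 3′ on the strand of the gene, with AGGTGT, AGGTGTGA and their reverse complements ACACCT and TCACACCT in capitals. Ccdc163, Rnf41, Atxn7 and Xrn1 are the tallest shared members by EoVP16 pileup whose promoter holds the longer motif, Lrig1 is a taller one without either, Wnt5b and Irgm1 are EoVP16-only, and Hoxa2 is EoV5-only.
Ccdc163, plus strand, chr4:116708345-116708594: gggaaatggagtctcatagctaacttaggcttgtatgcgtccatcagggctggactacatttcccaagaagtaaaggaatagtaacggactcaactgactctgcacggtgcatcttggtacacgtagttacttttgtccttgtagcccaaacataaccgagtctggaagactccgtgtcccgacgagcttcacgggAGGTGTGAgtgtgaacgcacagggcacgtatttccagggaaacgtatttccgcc
Rnf41, plus strand, chr10:128411366-128411615: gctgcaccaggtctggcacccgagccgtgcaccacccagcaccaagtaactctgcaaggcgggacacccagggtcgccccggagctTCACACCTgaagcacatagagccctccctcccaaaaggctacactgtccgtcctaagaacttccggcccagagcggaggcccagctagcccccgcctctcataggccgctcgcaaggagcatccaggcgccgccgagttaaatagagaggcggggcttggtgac
Atxn7, plus strand, chr14:14012241-14012490: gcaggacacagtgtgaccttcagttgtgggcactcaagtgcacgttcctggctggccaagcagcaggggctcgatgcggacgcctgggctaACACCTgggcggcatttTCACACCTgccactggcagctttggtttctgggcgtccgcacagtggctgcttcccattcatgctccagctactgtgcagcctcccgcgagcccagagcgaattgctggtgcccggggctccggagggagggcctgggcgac
Xrn1, plus strand, chr9:95954510-95954759: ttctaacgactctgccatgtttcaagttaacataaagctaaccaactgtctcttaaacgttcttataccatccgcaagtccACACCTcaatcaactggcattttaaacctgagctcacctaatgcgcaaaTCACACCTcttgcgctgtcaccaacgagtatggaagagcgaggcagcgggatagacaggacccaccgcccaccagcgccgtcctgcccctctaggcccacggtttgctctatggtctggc
Lrig1, minus strand, chr6:94700146-94700395: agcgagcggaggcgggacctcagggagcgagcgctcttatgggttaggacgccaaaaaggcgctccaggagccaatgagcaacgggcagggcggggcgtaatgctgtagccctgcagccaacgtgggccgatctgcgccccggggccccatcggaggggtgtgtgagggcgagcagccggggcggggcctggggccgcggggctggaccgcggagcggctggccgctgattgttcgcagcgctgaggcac
Wnt5b, minus strand, chr6:119449387-119449636: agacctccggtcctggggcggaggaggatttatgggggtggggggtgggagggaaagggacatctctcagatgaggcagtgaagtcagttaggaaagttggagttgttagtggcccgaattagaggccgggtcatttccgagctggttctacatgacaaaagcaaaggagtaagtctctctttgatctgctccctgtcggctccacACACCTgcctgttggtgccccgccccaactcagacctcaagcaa
Irgm1, minus strand, chr11:48871421-48871670: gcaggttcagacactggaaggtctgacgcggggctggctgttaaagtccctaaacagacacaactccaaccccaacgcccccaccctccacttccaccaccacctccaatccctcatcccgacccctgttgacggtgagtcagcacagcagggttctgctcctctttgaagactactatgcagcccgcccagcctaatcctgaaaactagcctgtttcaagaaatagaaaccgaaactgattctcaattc
Hoxa2, minus strand, chr6:52164832-52165081: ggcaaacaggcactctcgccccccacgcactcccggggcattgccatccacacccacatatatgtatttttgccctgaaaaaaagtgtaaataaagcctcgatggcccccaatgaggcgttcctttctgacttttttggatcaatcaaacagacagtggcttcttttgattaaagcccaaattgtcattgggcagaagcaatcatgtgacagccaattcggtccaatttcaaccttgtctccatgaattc

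The shorter motif AGGTGT, searched on either strand, was in 12.7% of all 21263 coding promoters of the table (Wilson interval 12.3 to 13.1). It was in 28 of 175 promoters inside shared members (16.0%, 11.3 to 22.2), in 10 of 123 inside EoVP16-only members (8.13%, 4.48 to 14.3) and in 0 of 3 inside EoV5-only members. The longer motif AGGTGTGA, which contains the shorter one, was in 245 of all promoters (1.15%, 1.02 to 1.30). Among promoters inside members it was found in 9 of 175 shared ones (5.14%, 2.73 to 9.48) and in 0 of 123 EoVP16-only ones (upper bound 3.03). Promoters inside BraGFP peaks that overlap EoGFP held it at 0.963% (30 of 3114). It was in 0 of 89 promoters inside peaks of no Eomes list (upper bound 4.14) and in 0 of 3 inside EoV5-only members. The 9 promoters come from 7 members, since Ccdc163 and Mmachc are a divergent pair in a single member and Tmem218 has 2 starts in another. The other genes are Rnf41, Atxn7, Xrn1, Uck2 and Lratd1. The 7 members had EoVP16 pileups between 108 and 281 and EoV5 pileups between 129 and 399, and the nearest EoGFP peak lay 3.71 to 44.9 kb away. Promoters inside shared members were also rich in G and C, with a median of 64.7% against 56.3% for all promoters. A promoter inside a member lies inside the BraGFP peak and need not lie under the matched EoV5 or EoVP16 peak. The motif shares are given as a description, since a single regulatory region can hold several of the promoters counted, and their relation to base composition was not tested.

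The members of the 3 subsets differed in height and width. The rule used the overlaps of these same peaks, so heights and widths are a description, and how far the rule sets them was not tested. EoV5 pileup had a median of 81 fragments in EoV5-only members (interquartile range 69 to 97.2, highest 1193) and of 97 in shared members (73 to 160, highest 2019). The whole EoV5 list had a median of 99, and its peaks outside both GFP lists a median of 79. EoVP16 pileup had a median of 47 in EoVP16-only members (40 to 58, highest 251) and of 74 in shared members (52 to 119, highest 1212), against 54 in the whole list and 43 outside both GFP lists. By median, sites found by a single V5 construct lay closer to the floor of that list than shared sites did. The lowest shared members were also at the floor (61 fragments in EoV5 and 36 in EoVP16). BraGFP peaks were 541 bp wide at the median in EoV5-only members, 652 bp in EoVP16-only and 779 bp in shared members, between 496 bp for peaks in no Eomes list and 875 bp for those that overlap EoGFP.

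**Figure D1:**
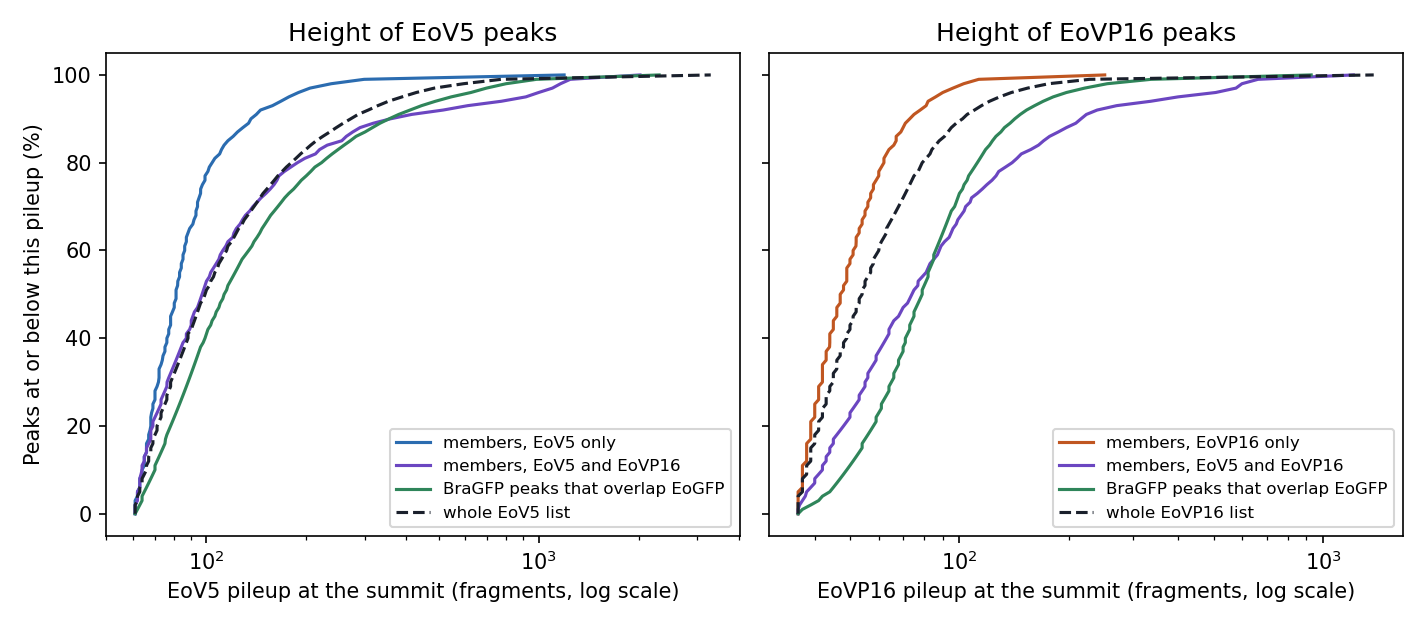
Cumulative share of peaks (percent) against pileup (fragments, log scale) in the EoV5 list (left) and the EoVP16 list (right), for the members, for BraGFP peaks that overlap EoGFP and for the whole list. EoV5-only and EoVP16-only members lie to the left of the whole list, and 44 of the 818 shared members reach EoV5 pileups of 900 or above.

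In shared members, the EoV5 and EoVP16 summits were 24 bp apart at the median, and 666 of 818 pairs (81.4%) lay within 100 bp. The EoV5 summit fell inside the BraGFP peak in 79.2% of EoV5-only members (Wilson interval 75.8 to 82.2) and 87.4% of shared members (85.0 to 89.5). The EoVP16 summit did so in 94.6% of EoVP16-only members (93.3 to 95.6) and 91.2% of shared members (89.1 to 93.0). Over the 818 shared members, the heights of the libraries were related, with Spearman's rho 0.611 and Pearson's r of the log2 pileups 0.789. Without the members of EoV5 pileup 500 or more, rho was 0.512 and r 0.591 (n = 750), and over the 5969 BraGFP peaks found in all 4 lists they were 0.418 and 0.505. These are correlations across peaks that share the same pair of libraries, and peaks are not replicates.

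Some members sat beside an EoGFP peak rather than far from one. The matched EoV5 or EoVP16 peak itself reached an EoGFP peak in 48 EoV5-only (7.74%), 35 EoVP16-only (2.31%) and 85 shared members (10.4%), 168 in all (5.69%). An EoGFP peak began within 5 kb of the edge in 25.6% of EoV5-only, 23.3% of EoVP16-only and 25.8% of shared members, against 16.3% (15.8 to 16.9) of BraGFP peaks in no Eomes list. The median gap to EoGFP was 16.5 kb, 17.5 kb and 15.6 kb in the subsets and 22.2 kb in peaks of no Eomes list. At the edge of the rule, 5 members had an EoGFP peak within 50 bp, and 5 of the 8083 peaks that overlap EoGFP shared under 50 bp with it. The tallest EoV5-only members were mostly of this neighbouring kind. Klf7, a Krüppel-like transcription factor gene, held the tallest (chr1:64101380-64101833), where an EoV5 peak of 1193 fragments (exact 95% Poisson interval 1126 to 1263, counting error only) had its summit outside the BraGFP peak and also overlapped EoGFP. The same was true of the next members by height, near Hus1 (802 fragments), Cdkn3 (728), Atp2a3 (363) and Ces2g (305), whereas the EoV5 peak of 324 fragments inside Ryr3, a calcium release channel gene, reached no EoGFP peak, with its summit also outside the BraGFP peak. Among EoVP16-only members, the matched EoVP16 peaks at Creb3l2 (251 fragments) and Copz2 (135) overlapped EoGFP, with summits outside the BraGFP peak. The EoVP16 peaks near Cst7 (204), Zeb2 (190), Gm13290 (132) and Zfp536 (132) reached no EoGFP peak.

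The heights of shared members had a long upper tail. Of 818, 722 had an EoV5 pileup under 300, 52 from 300 up to 900, and 44 at 900 or above. The cut at 900 was not set in advance and marks no clear gap. Quantiles 0.9, 0.93 and 0.96 of EoV5 pileup in shared members were 358, 612 and 1000. In those 44 the EoV5 pileup had a median of 1113 (905 to 2019) and the EoVP16 pileup a median of 588 (121 to 1212), and 30 of them had an EoVP16 pileup between 500 and 900. The nearest EoGFP peak was 33.6 kb away at the median, but some of the 44 lay beside one, the closest at 0.102 kb. Of the 44, 29 lay outside coding genes, 12 inside and 3 within 1 kb of a gene end. Over all 818 shared members, 298 lay outside (36.4%), 320 inside (39.1%) and 200 at a gene end (24.4%). The tallest was 19.5 kb from Raet1d (chr10:22341382-22343261), a gene for a ligand of an activating natural killer receptor, where EoV5 stacked 2019 fragments (1932 to 2109) and EoVP16 stacked 1212 (1145 to 1282). Next by the sum of ranks were members near Gm38702 (1743 and 980), Vmn1r184, a vomeronasal receptor gene (1401 and 878), Lrrc8b, an anion channel subunit gene (1306 and 1007), Dnah7a, a dynein gene (1329 and 692), and Gm10058 on chromosome X (1285 and 837). By a tally of gene names chosen after the values were seen, the nearest gene was a numbered gene model (Gm) or a vomeronasal (Vmn) or olfactory (Olfr) receptor gene in 9 of the 44 (20.5%) and in 36 of all 818 shared members (4.40%), beside 12.8% of all coding genes. Most of the 44 had a nearest gene outside these names.

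**Figure D2:**
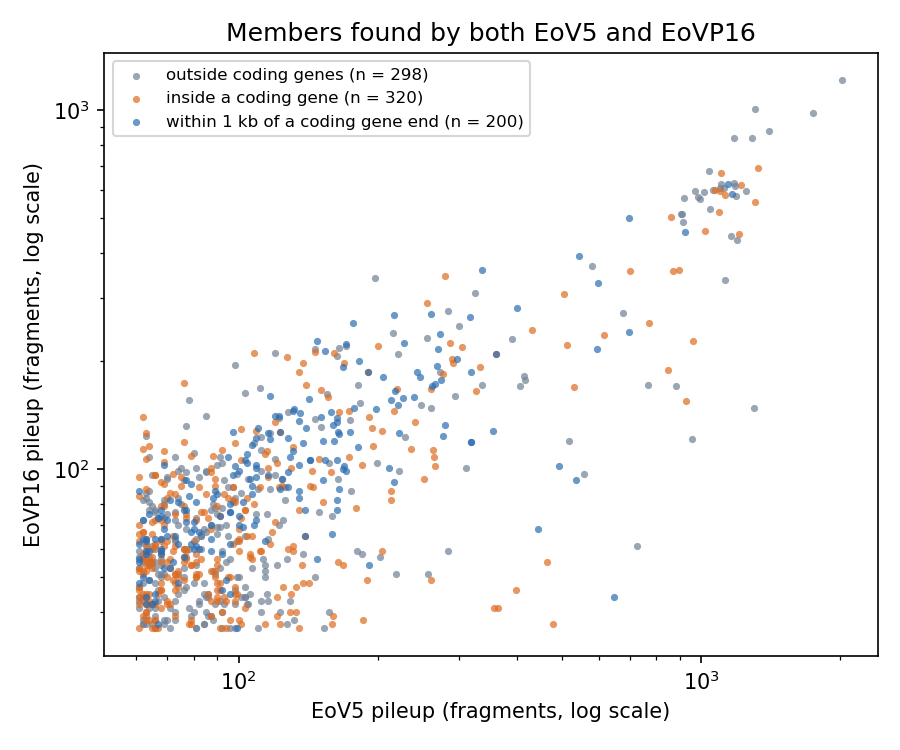
EoV5 pileup (x) against EoVP16 pileup (y), both in fragments on log scales, for the 818 shared members, coloured by location. Most points lie under 300 and 200 fragments. The 44 members with an EoV5 pileup of 900 or above lie mostly outside coding genes (29), with EoVP16 pileups from 121 to 1212. Of all 818, 298 lie outside coding genes (36.4%).

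The tallest V5 peaks that EoGFP lacked were at BraGFP sites. Of 168 EoV5 peaks with 1000 fragments or more, 33 had no EoGFP peak, and all 33 overlapped BraGFP (Wilson interval 89.6 to 100%), whereas 64 of the 135 with EoGFP did (47.4%, 39.2 to 55.8). Between 500 and 998 fragments, 31 of 41 without EoGFP overlapped BraGFP (75.6%), against 36.6% of those with EoGFP. In the lower classes the order was the other way round. Between 61 and 99 fragments, 860 of 10968 without EoGFP overlapped BraGFP (7.84%), against 32.9% with it (31.9 to 33.9), and between 100 and 199 fragments 8.88% did, also under the share with EoGFP. For EoVP16 with 500 fragments or more, the counts were 34 of 34 without EoGFP and 21 of 28 with it. Between 36 and 49 fragments, 10.1% of EoVP16 peaks without EoGFP overlapped BraGFP, against 15.1% with it, and between 50 and 99 the shares were 20.4% and 34.6%. Heights and overlaps both enter the rule, so these shares carry no test.

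**Figure D3:**
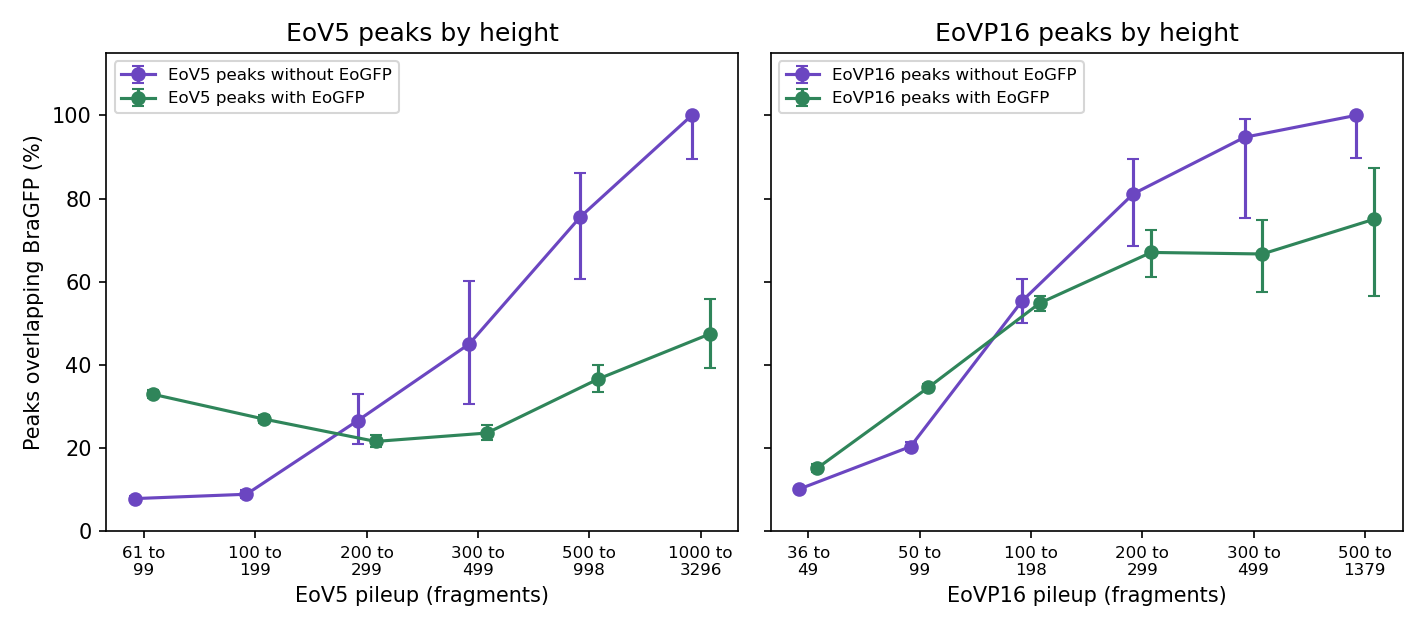
Percent of EoV5 peaks (left) and EoVP16 peaks (right) that overlap BraGFP, by pileup class (fragments), for peaks without and with EoGFP, with 95% Wilson intervals. The share without EoGFP climbs from 7.84% to 100% in EoV5 and from 10.1% to 100% in EoVP16, below the share with EoGFP in the lowest 2 classes of each list and above it in the tallest.

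Location was not used by the rule and was tested. The question was whether members lie at gene ends, where promoters are, or elsewhere. The gene table gives no strand, so either end of a coding gene counted. The midpoint lay within 1 kb of an end in 27 of 620 EoV5-only members (4.35%, Wilson interval 3.01 to 6.26), 225 of 1514 EoVP16-only members (14.9%, 13.2 to 16.7) and 200 of 818 shared members (24.4%, 21.6 to 27.5). Over all BraGFP peaks the share was 16.1%. It was 3.31% in peaks of no Eomes list and 42.6% in peaks that overlap EoGFP, so all members together (452 of 2952, 15.3%) lay between these classes. EoV5-only minus EoVP16-only members was -10.5 points (95% Newcombe interval -12.8 to -7.95), which passed Fisher's exact test (two-sided, p = 2.4e-13 adjusted over 5 contrasts). EoV5-only minus shared members was -20.1 points (-23.4 to -16.7, Fisher's exact test, adjusted p = 9.0e-28). EoVP16-only minus shared members was -9.59 points (-13.1 to -6.20, Fisher's exact test, adjusted p = 2.3e-08). All members exceeded peaks of no Eomes list by 12.0 points (10.7 to 13.4, Fisher's exact test, adjusted p = 5.3e-121). Members minus peaks with EoGFP was -27.3 points (-29.0 to -25.6, Fisher's exact test, adjusted p = 1.5e-169).

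Width moved with these shares, and its part in them was not tested. Among the narrower 50% of BraGFP peaks, 4.03% of EoV5-only, 9.52% of EoVP16-only and 10.7% of shared members lay at a gene end, and all 5 differences were smaller. EoVP16-only minus shared members was -1.21 points and did not pass (Fisher's exact test, adjusted p = 0.62). EoV5-only members differed by -5.48 points from EoVP16-only and by -6.69 from shared members (Fisher's exact test, adjusted p = 0.0023 for both). All members differed by 5.39 points from peaks of no Eomes list (Fisher's exact test, adjusted p = 2.6e-17) and by -6.90 from peaks with EoGFP (adjusted p = 1.1e-08). Distance was also counted from RefSeq coding starts, which were at hand for 17492 of 21887 coding genes and for none on chromosome 18. Peaks on chromosome 18 were left out, and a peak at any other missing start counted as away from one. Within 1 kb of a start, the shares were 2.02%, 12.2% and 23.5% in the subsets. They were 1.44% in peaks of no Eomes list and 40.3% with EoGFP, and all 5 contrasts passed. Of the 377 members at a start, 219 had the midpoint downstream of it (58.1%, 53.1 to 63.0). The share was similar in peaks that overlap EoGFP (59.8%, 1883 of 3149). It was 46.7% in peaks of no Eomes list (107 of 229, 40.4 to 53.2).

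Over the whole lists, 16.1% of EoV5 peaks and 27.9% of EoVP16 peaks lay at gene ends. Away from BraGFP, EoV5 alone again lay below EoVP16 alone, but the place of the peaks in both V5 lists was different. EoV5 peaks outside both GFP lists and EoVP16 lay at gene ends in 2.25% (234 of 10408), and EoVP16 peaks outside both GFP lists and EoV5 in 18.2% (1774 of 9767), values with no test against members. EoV5 peaks outside the GFP lists but with EoVP16 lay there in 9.25% (287 of 3103), beside 24.4% of shared members. Thus the peaks of both V5 lists lay between the single-list classes there, whereas among members they were the highest. Among shared members, the share at gene ends was 7.32% in the lowest of 4 classes of equal size by EoVP16 pileup (4.48 to 11.7) and 34.3% in the highest (28.1 to 41.1). By EoV5 pileup the same members went from 18.5% in the lowest class to 32.4% in the highest. EoVP16-only members showed no steady climb with EoVP16 pileup (10.8%, 14.2%, 19.6% and 14.8%), and EoV5-only members stayed between 3.23% and 5.16% in the 4 classes of EoV5 pileup.

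Elsewhere inside a coding gene lay 49.0% of EoV5-only (45.1 to 53.0), 45.0% of EoVP16-only (42.6 to 47.6) and 39.1% of shared members (35.8 to 42.5), against 46.1% of all BraGFP peaks. EoV5-only exceeded shared members by 9.91 points (4.73 to 15.0, two-sided Fisher's exact test, adjusted p = 3.5e-04), and EoVP16-only exceeded shared members by 5.93 points (1.72 to 10.1, adjusted p = 0.0072). The difference of 3.99 points between EoV5-only and EoVP16-only (-0.67 to 8.64) did not pass (Fisher's exact test, adjusted p = 0.094). All members (44.2%) minus peaks of no Eomes list was -9.57 points (-11.5 to -7.62, Fisher's exact test, adjusted p = 2.5e-21). Members exceeded peaks with EoGFP by 13.1 points (11.1 to 15.2, Fisher's exact test, adjusted p = 3.1e-36). By Fisher's exact test among narrower peaks, 3 of these calls were lost: EoV5-only minus shared (3.39 points, adjusted p = 0.69), EoVP16-only minus shared (2.1, adjusted p = 0.74) and members minus peaks with EoGFP (3.05, adjusted p = 0.23). EoVP16-only minus shared was also lost with a window of 500 bp (4.24, Fisher's exact test, adjusted p = 0.063).

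**Figure D4:**
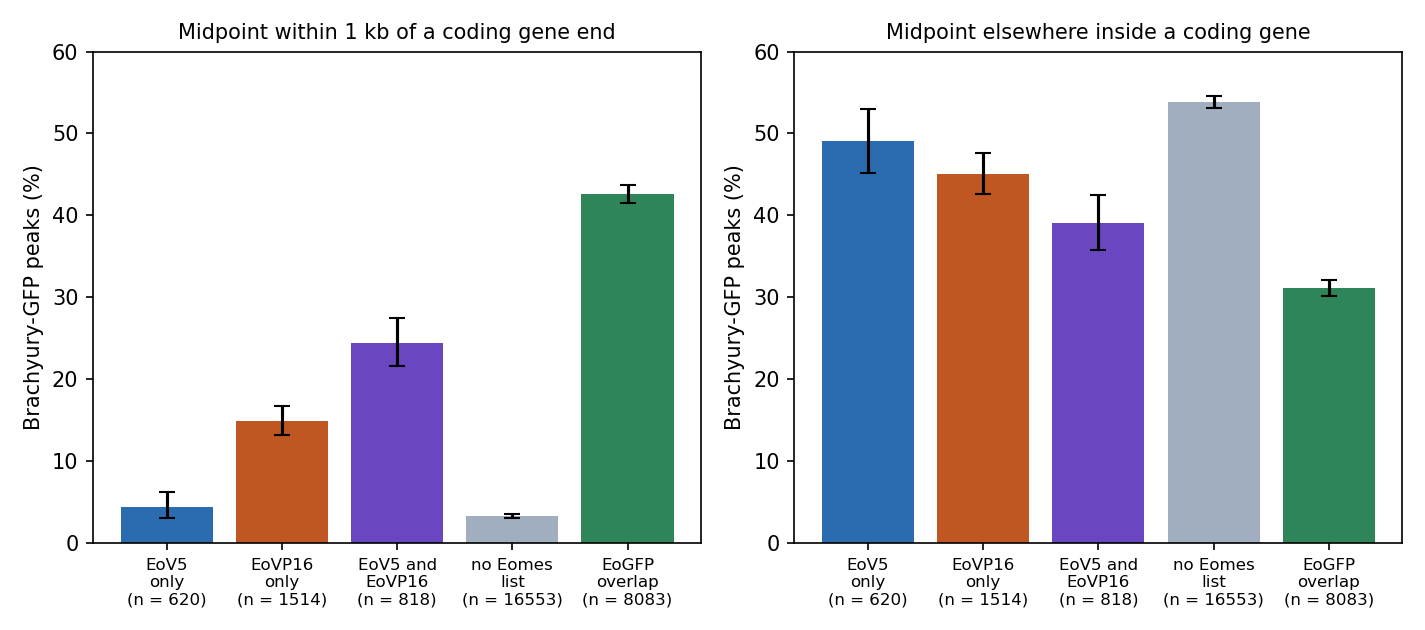
Percent of BraGFP peaks with the midpoint within 1 kb of a coding gene end (left) or elsewhere inside a coding gene (right), for the 3 subsets of members and the remaining classes, with 95% Wilson intervals and the number of peaks. At gene ends the bars climb from 4.35% (EoV5 only) to 14.9% (EoVP16 only) and 24.4% (EoV5 and EoVP16), and reach 42.6% where EoGFP overlaps.

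Of 21887 coding genes, 4453 had a member within 50 kb (20.3%): 837 an EoV5-only member (3.82%), 2533 an EoVP16-only member (11.6%) and 1569 a shared one (7.17%). The share was 9.92% within 10 kb and 31.3% within 100 kb. Members were spread out, with a median of 169 kb to the next, and 211 (7.15%) had another within 10 kb. Most crowded was a stretch of chromosome 6 between Gm40369 and Pdia4, where 9 members lay within 50 kb of Gm40363, an uncharacterised gene model. The 5 members at Gm40369, Gm40367, Gm36327 and Gm40364 in this stretch had nearly equal heights, 127 to 154 fragments in EoV5 and 187 to 216 in EoVP16, and whether these neighbouring gene models are near-identical copies was not tested. Maml3, a coactivator gene of the Notch pathway, had 7 members (4 EoVP16-only, 3 shared) among 15 BraGFP peaks without EoGFP. Atxn1, a gene for a nuclear protein of polyglutamine disease, had 6 of 20, and Etl4, a gene expressed in the notochord, had 5 of 16.

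Genes of development were read in lists, each with the share of nearby BraGFP peaks without EoGFP that were members, beside 15.1% over the genome. Nodal, activin and BMP signalling had 11 of 22 genes with a member, and 11 of 48 nearby peaks were members (22.9%, Wilson interval 13.3 to 36.5). Of these, 8 were EoVP16-only. At the ligand gene Bmp4, a member of 52 EoVP16 fragments (38.8 to 68.2) lay 0.939 kb from the gene (chr14:46391245-46391971). The ligand gene Gdf3 had 1 EoV5-only member, and the antagonist genes Lefty1 and Lefty2 shared 1 EoVP16-only member of 36 fragments, 3.58 kb from Lefty2. The receptor gene Acvr1b had 1 shared member of 957 EoV5 and 121 EoVP16 fragments, 7.26 kb away. It lay nearer to Grasp and 0.102 kb from an EoGFP peak. The receptor gene Acvr2b had 1 EoVP16-only member, 49.4 kb away. The inhibitory Smad gene Smad6 had 2, of 50 and 43 EoVP16 fragments, and Smad7 had 1 of 43. Wnt genes had 5 of 18 with a member, and 5 of 49 peaks (10.2%, 4.44 to 21.8). At the ligand gene Wnt5b, whose promoter is printed above, the EoVP16 peak held 47 fragments (34.5 to 62.5). That peak ended at chr6:119449334, so the printed promoter lay inside the BraGFP peak but outside the EoVP16 peak. Lgr5, a receptor gene of the pathway, had an EoVP16 peak of 53. The Fgf list had 4 of 17 genes and 4 of 32 peaks, all EoVP16-only. They were near the ligand genes Fgf8 (37 fragments, 26.1 to 51.0) and Fgf15, the receptor gene Fgfr1 (40) and the inhibitor gene Spry2 (38). The Fgf8 member lay 0.138 kb from an EoGFP peak, which its EoVP16 peak did not reach, and was near the floor of 36.

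In the list of epithelial-mesenchymal transition and adhesion, 8 of 15 genes had a member, and 12 of 41 nearby peaks were members (29.3%, 17.6 to 44.5). Cdh1, the gene of E-cadherin, which holds epithelial cells together, had 3 members within 50 kb, of a different subset each. They were EoV5-only with 96 fragments, EoVP16-only with 46, and shared with 81 in EoV5 (summit outside the BraGFP peak) and 73 in EoVP16. The EoVP16-only member lay inside Cdh1, 0.527 kb from an EoGFP peak. The shared member lay 39.5 kb from Cdh1 and nearer to Cdh3 (6.9 kb). Cdh2, the gene of N-cadherin, had an EoV5-only member of 136 and a shared one of 84 and 76. Zeb2, a repressor of Cdh1, held an EoVP16-only member of 190 fragments (164 to 219, chr2:45067118-45067853) and an EoV5-only one, where the EoV5 summit of 171 (146 to 199) lay outside the BraGFP peak. Snai1, Vim, Fn1, Esrp2 and Cdh11 had 1 EoVP16-only member each.

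Hox genes, which pattern the body axis, had a member within 50 kb in 12 of 15, the highest count, but through only 7 distinct members, since neighbouring Hox genes share them. These were 7 of 18 nearby peaks (38.9%, 20.3 to 61.4), 6 of them EoVP16-only. The exception was the wide EoV5-only member over Hoxa2 (chr6:52163801-52166125, 2325 bp), of 78 EoV5 fragments (61.7 to 97.3), which covers the start and promoter printed above. An EoVP16-only member inside Hoxa3 had 47 fragments (34.5 to 62.5).

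Among primitive streak genes, 3 of 15 had a member and 3 of 18 peaks were members (16.7%). Brachyury's own gene T had 0, and its nearest member was 66.7 kb away. Eomes had 1 EoVP16-only member of 84 fragments (67.0 to 104) at 20.5 kb, which lies in the neighbouring gene Golga4. Presomitic and posterior mesoderm genes had 6 of 22 with a member (7 of 32 peaks). Cdx4, a caudal-type factor, had 2 EoV5-only members of 88 and 76 fragments, and Msgn1, Dll3, Hes7, Cdx1 and Meox1 had 1 each. Those of Dll3 and Cdx1 lay inside the neighbouring genes Timm50 and Pdgfrb. Node and notochord genes had 4 of 13 (4 of 15 peaks), with an EoV5-only member of 139 fragments (117 to 164) 13.4 kb from Foxa2, a factor of notochord and endoderm. Definitive endoderm genes had 6 of 15 with a member, and 6 of 13 peaks (46.2%, 23.2 to 70.9), among them a shared one in Gata4 (68 and 58 fragments) and an EoVP16-only one at Kitl (59). No list was tested, and 16 lists were read. Anterior and cardiac mesoderm genes had 5 of 16 (5 of 21 peaks), and at Pdgfra, a receptor gene of early mesoderm, the EoVP16 peak of 123 fragments (102 to 147) also reached EoGFP, with its summit outside the BraGFP peak.

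Pluripotency genes had 3 of 17 with a member (6 of 25 peaks). Esrrb, an orphan nuclear receptor gene, had 2 EoVP16-only members of 51 and 63 fragments, 42.1 and 102 kb from EoGFP. Tbx3, a T-box gene, had a pair of neighbouring members that share a single EoV5 peak of 239 fragments (210 to 271), of which one also had EoVP16 with 159, and the EoV5 summit lay inside that one alone. Sox2 had an EoVP16-only member of 60 fragments and a shared one, whose V5 peaks (117 and 88 fragments) both reached EoGFP and had their summits outside the BraGFP peak. The gene was also on the neural plate list, where Pax3 was the other of 2 genes out of 16. Corepressor and chromatin genes had 6 of 17 with a member (9 of 37 peaks). The widest BraGFP peak of all members lay over Brd2, a bromodomain gene (chr17:34118577-34124101, 5525 bp), with 236 fragments in EoV5 and 114 in EoVP16. Marker genes of cells that the labels do not name also had members: 3 of 10 neuron genes, 3 of 10 liver genes and 4 of 10 lymphoid genes. Their peaks were members in 4 of 20, 2 of 10 and 3 of 14 cases.

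**Figure D5:**
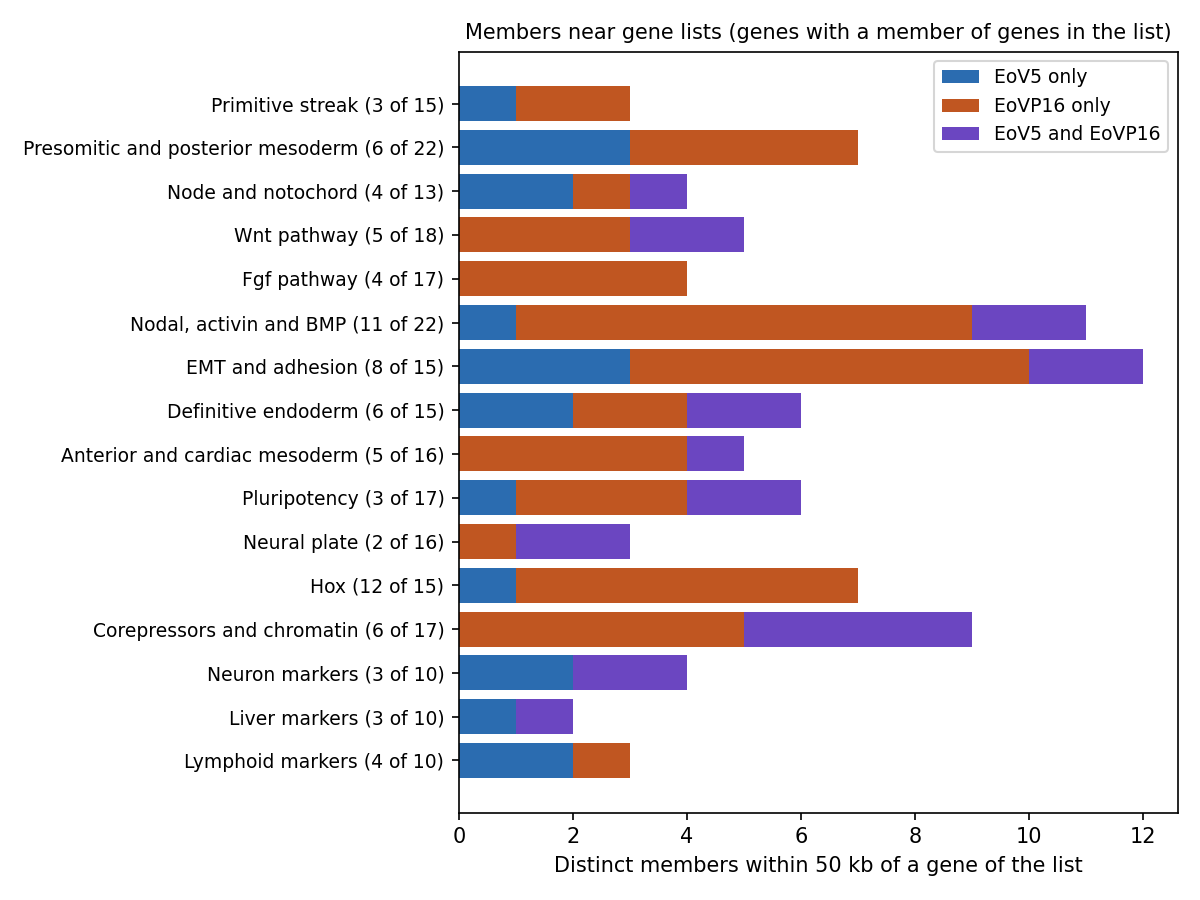
Number of distinct members within 50 kb of a gene of each list, by subset. Brackets give the genes with a member among the genes of the list, and the adhesion list (12 members) and the Nodal, activin and BMP list (11) hold the most.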

How the data were processed

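The deposited peak lists of BraGFP, EoGFP, EoV5 and EoVP16 were used (build mm10/GRCm38), and other libraries were not analysed here. Tools named in the submitters' processing notes were MACS2 2.1.1.20160309.4, bedtools 2.27.0, SAMtools 1.3.1, Bowtie2 2.3.4 and Picard 1.56.0. Order, settings and the joining of replicate libraries are not given in the sources used here. The authors' lists for the V5 libraries carry no header line and have the columns of a MACS2 table. In them the deposited signal is the pileup at the summit, the ratio is the fold over the caller's background, and the −log10 p and q values deposited by the authors were not used. BraGFP and EoGFP lists hold positions only. Coordinates are printed as deposited, with a possible offset of 1 bp in BraGFP. Library depth is unknown, and minimum pileups come from the deposited names.

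Peaks off the 21 assembled chromosomes (7, 4, 7 and 6) and repeated entries (4, 12, 46 and 26) were dropped. The scripts (Python 3.11.15, pandas 2.3.3, SciPy 1.17.1) were tested on simulated data. Fisher's exact tests used 5 contrasts per family, adjusted by Benjamini-Hochberg at 0.05. Pileups carry exact Poisson and shares Wilson intervals, for counting error only. Genes and promoters came from RefSeq tables of GRCm38.p6 (21887 coding genes, of which 17492 had a promoter). Genes named are those nearest to the 6 tallest and 3 widest members of each subset, the 8 with the most members, and the first 3 of each list. Other listed genes with a member, those at promoters with a motif, and those near further tall members were named after their values were seen. The members and lists were chosen with earlier results of these data known.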

Additional observations from a re-analysis of the deposited data

How the results depend on the processing

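Of 110 recomputed location differences (11 alternatives), 102 kept direction and side of the threshold, and none turned direction. Chosen after seeing the data were coding starts, leaving out members whose V5 or VP16 peak also reaches EoGFP, and leaving out members of EoV5 pileup 500 or more or EoVP16 pileup 300 or more. All 3 kept every call. Among narrower BraGFP peaks, EoVP16-only minus shared members at gene ends was -1.21 points. Inside genes, EoV5-only minus shared was 3.39, EoVP16-only minus shared 2.1, and members minus EoGFP-overlapping peaks 3.05, and these 4 no longer passed. With a 500 bp window, EoVP16-only minus shared inside genes (4.24) no longer passed. EoV5-only minus EoVP16-only inside genes passed with a 50% overlap (4.92), a 5 kb window (6.02) and wider peaks (7.23). The cause was not tested. With the taller 50% of both V5 lists, which hold fewer peaks, members fell to 1328 (203, 781 and 344). Genes with a member numbered 2172 at 10 kb (9.92%) and 6855 at 100 kb (31.3%).

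No paired analysis was possible because each construct has a single list. Leaving out a replicate was not possible for the same reason. The motif comparison around peak midpoints was not run, since it needs a genome sequence. Depth is unknown, so heights are not compared between lists.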

Other observations

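GTPase genes, many of which act in the interferon response, were noticed among the taller EoVP16-only members at promoters, after values were seen. Of 18 such genes in the table (Gbp, Irg, Igtp, Tgtp and Iigp names), Irgm1 (127 EoVP16 fragments), Irgm2 (101), Gbp2 (97) and Gbp7 (45) had an EoVP16-only member within 1 kb of a gene end (22.2%). Over all 21887 coding genes the share was 1.11% (244 genes). Over the 4934 with any BraGFP peak at an end it was 4.95%, beside 4 of the 7 GTPase genes with such a peak. Since the genes were picked for these members, no test is given. The Gbp7 member was not a tall one, below the median of 50 fragments for EoVP16-only members at gene ends. Gbp3 and Irgq had a BraGFP peak there that overlaps EoGFP, with EoVP16 at 78 and 58 fragments and no EoV5 peak, and Igtp had a BraGFP peak in no Eomes list. No EoV5 peak matched the BraGFP peaks at any of these 7 genes, and the other 11 genes had no BraGFP peak at an end.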
